A study of Mus musculus with 2 samples.

Results

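The genes described here are 35 skeletal muscle genes (sarcomere proteins and their calcium and energy partners), taken from a fixed list by gene name in both transcript tables, out of 18580 annotated genes with at least 1 read in either library. The reads come from adrenal gland of male B6CASTF1/J mice, given in the labels as B6Cast F1, at 10 days of age. The 1 group holds 2 libraries, replicate 1 and replicate 2, made from total RNA by long-read RNA sequencing, in which 1 read is ideally 1 whole cDNA. The labels name no treatment and no second condition, give both libraries 1 donor entry and disagree on the animal number of replicate 2. The p-values below therefore say only whether a difference between these 2 libraries exceeds counting error, and such a difference may be technical. They hold no measure of the spread between libraries or animals. Replicate 2 is labelled with a starting quantity of 1 µg RNA, and replicate 1 carries no such label.

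Skeletal muscle fibres contract when thick filaments of myosin pull on thin filaments of actin within the sarcomere. Calcium released from the sarcoplasmic reticulum binds troponin on the thin filament and so permits the pull, and calcium pumps end it. Many of these proteins exist in fast-fibre, slow-fibre, embryonic and perinatal forms from separate genes, and newborn limb and trunk muscle moves from the early forms to the fast ones.

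The libraries held 927914 and 1303420 reads on annotated genes in replicates 1 and 2. Levels are given as reads and as reads per 1000000 of these (CPM). A long read counts once whatever its length, so CPM is not divided by length, but long transcripts are often read in pieces. The limit that a count of 0 allows (3 reads) was 3.23 CPM for replicate 1 and 2.30 for replicate 2, for counting error only. The adrenal label held against its markers: 6 cortex genes, among them Cyp11a1 (side-chain cleavage of cholesterol) and Star (cholesterol import), summed to 30893 and 19802 CPM, and 6 medulla genes, among them Th (catecholamine synthesis), to 11418 and 6070 CPM. Genes of other tissues were also read, with 8 hepatocyte genes at 9353 and 27827 CPM and 8 brown fat genes at 6738 and 8698 CPM.

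Together the 35 muscle genes took 1415 reads (1525 CPM, 0.152% of gene reads) in replicate 1 and 6022 reads (4620 CPM, 0.462%) in replicate 2. The sum was 3.03-fold higher in replicate 2, with a mean of 3073 ± 2189 CPM (SD, n = 2). All 35 genes were read in replicate 2 and 29 in replicate 1, where Tnnt1, Myh3, Myh7, Ttn, Neb and Ldb3 had no read. By role, the sums were 5.06-fold higher for the 10 thick filament genes, 3.25-fold for the 8 thin filament genes, 2.61-fold for the 8 genes of the Z-disc, titin and desmin, 2.56-fold for the 5 calcium genes and 2.41-fold for the 4 energy genes. Without the short Mylpf and Myl1 the other 8 thick filament genes, with 65 and 283 reads, were 3.10-fold higher. In bulk tissue, fewer muscle cells and less muscle RNA per cell cannot be told apart.

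Each gene was compared between the libraries by Fisher's exact test (two-sided) on its reads and the remaining gene reads, with Benjamini-Hochberg adjustment over all 11650 genes with 10 or more reads in all. Of the 35 members 28 passed this minimum, 22 were higher in replicate 2 at an adjusted p under 0.05, and none was lower. Over all tested genes 13.0% were higher and 22.2% lower in replicate 2. The median log2 ratio was 1.46 over the 28 members and -0.25 over all tested genes. TMM scaling moved the median of all genes up by 0.26 and kept all 22 calls, where 16.9% of all genes were higher; of all calls over the series 36.9% were on the higher side without it and 59.7% with it. Reads on annotated transcripts alone left 21 members to test, of which 14 were higher, against 13.6% of all genes. The other settings kept 21 or 22 of the calls, with 16.9% of all genes higher under DESeq2 size factors, 15.2% with a minimum of 20 reads, 7.54% with no minimum beyond 1 read, 13.3% without Genomic models (reads with intron or intergenic sequence), 12.9% when each ratio was set against that of genes of like transcript length, and 9.67% with a 2-fold minimum.

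The 6 members that were tested and did not pass were Mb, Tnni1, Myh2, Myh8, Pygm and Myot. Untested at 10 reads were Myh3, Myh7, Ttn, Neb, Ryr1, Cacna1s and Ldb3. The hepatocyte genes moved with the muscle genes, 7 of 8 higher in replicate 2 and 1 lower, and their sum was 2.98-fold higher. Of the cortex genes 5 of 6 were lower and of the medulla genes 4 of 6, and with TMM scaling each list had 4 lower and 1 higher. The part of tissue composition in the ratios was not tested.

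**Figure D1:**
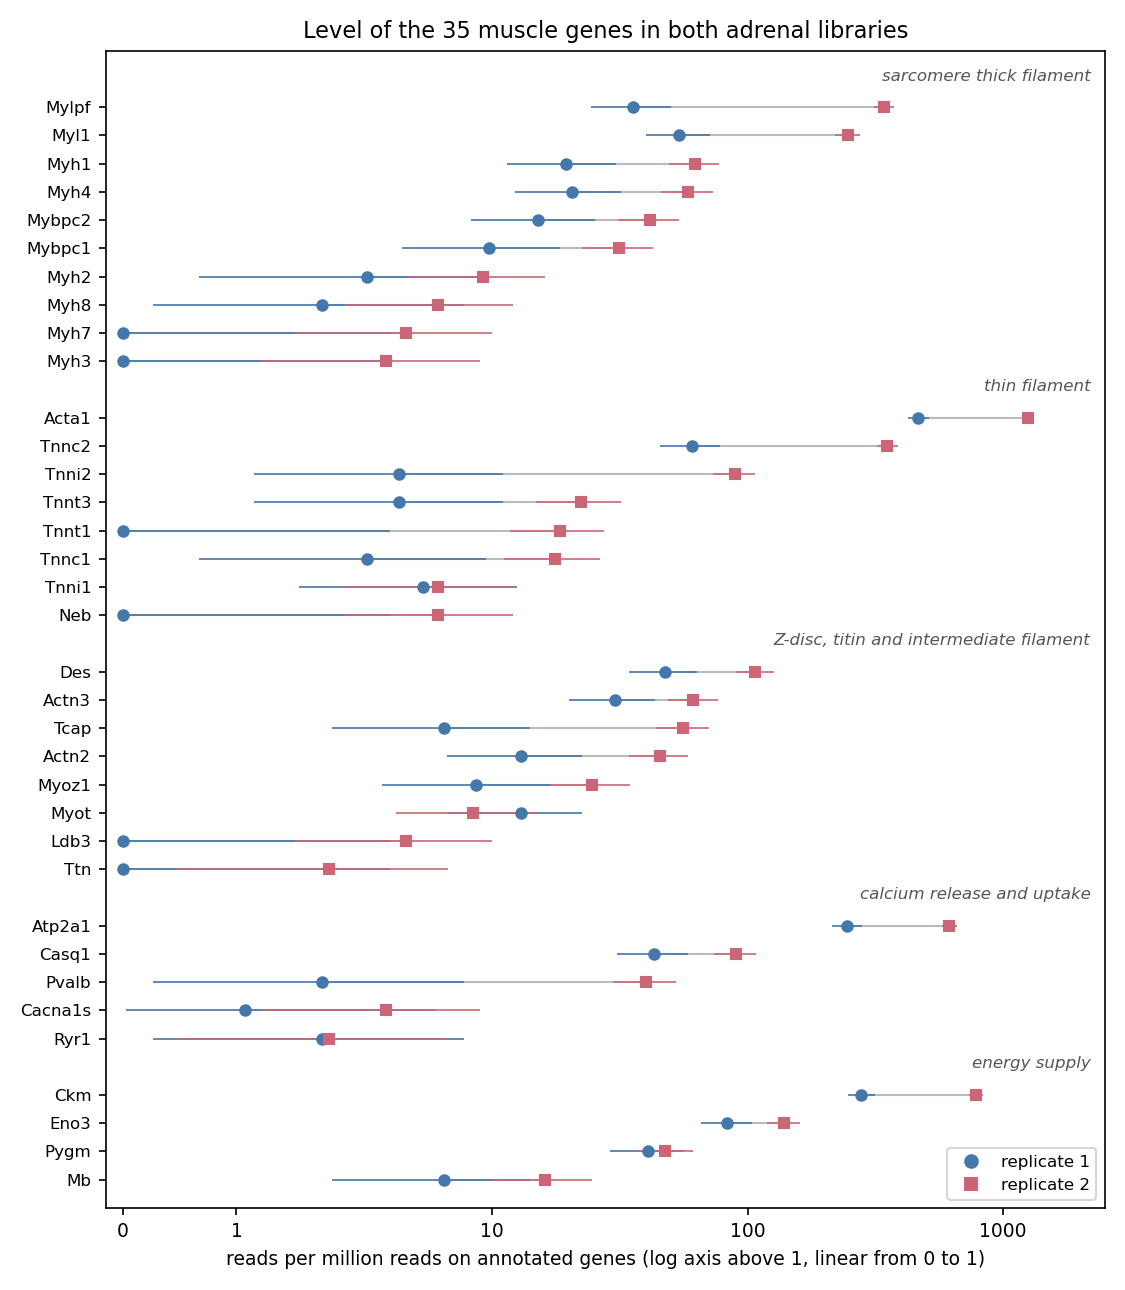
Reads per 1000000 reads on annotated genes of the 35 muscle genes, grouped by role, in replicate 1 (circles) and replicate 2 (squares). Bars are exact 95% Poisson intervals of each library's count, and the axis is linear below 1 and logarithmic above; Myot alone lies further left in replicate 2.

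The thick filament is built of myosin heavy chains, the motors, with light chains on their necks and binding protein C along the shaft. Mylpf, the fast regulatory light chain, had 33 reads (35.6 CPM) in replicate 1 and 446 (342 CPM) in replicate 2, a 9.49-fold difference, fitted like the other folds with 0.5 reads added to each library (Fisher's exact test, adjusted p = 3.64e-64). Myl1, the fast essential light chain, had 50 and 322 reads, 53.9 and 247 CPM, and was 4.55-fold higher. Of the binding proteins, Mybpc2, the fast form, had 14 and 54 reads and was 2.68-fold higher, and Mybpc1, the slow form, had 9 and 41 reads and was 3.11-fold higher, a call lost on annotated models alone (Fisher's exact test, adjusted p = 0.146). Against genes of like transcript length, Mylpf was 4.99-fold and Myl1 2.63-fold higher. All 4 passed the test, and the counts of replicate 2 exceeded those of replicate 1 by more than the difference in depth.

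The 6 heavy-chain genes together had 42 reads in replicate 1 and 188 in replicate 2. Myh1, the fast IIx form, had 18 and 81 reads (19.4 and 62.1 CPM) and Myh4, the fast IIb form, 19 and 76 (20.5 and 58.3 CPM). These were 3.14-fold and 2.79-fold higher in replicate 2. On annotated models alone neither passed (Fisher's exact test, adjusted p = 0.148 and 0.205), with log2 ratios of 0.88 for Myh1 in place of 1.65 and 1.34 for Myh4 in place of 1.48. Myh2, the fast IIa form, had 3 and 12 reads, with a ratio (no reads added) of 2.85 and an exact 95% interval of 0.768 to 15.7. Myh8, the perinatal form, had 2 and 8 reads, with a ratio of 2.85 and an interval of 0.568 to 27.5. Both intervals include 1. Myh3, the embryonic form, had 0 and 5 reads, and Myh7, the slow form that heart also uses, 0 and 6.

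As shares of heavy-chain reads, Myh1 made up 42.9% in replicate 1 and 43.1% in replicate 2, with exact Clopper-Pearson 95% intervals of 27.7% to 59.0% and 35.9% to 50.5%. Myh4 made up 45.2% (29.8% to 61.3%) and 40.4% (33.3% to 47.8%). On annotated models alone, with 16 and 45 heavy-chain reads, Myh1 had 11 and 27 and Myh4 3 and 11, mean shares of 64.4% and 21.6%. The fast forms Myh1, Myh2 and Myh4 together made up 95.2% and 89.9%. The perinatal Myh8 stood at 4.76% and 4.26%. The embryonic Myh3 reached 2.66% and the slow Myh7 3.19% in replicate 2; at 42 reads, 0 of replicate 1 allows up to 8.41% for each. The intervals of each share overlapped between the libraries. The most-read annotated transcripts of the 6 genes are alike in length, 5912 to 6149 nt. The genes are of 1 family with related coding sequences, which were not compared here. Myh1, Myh2, Myh3, Myh4 and Myh8 lie in 1 cluster at chr11:67078300-67308634 (mm10). Partial reads may therefore have been given to the wrong gene.

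**Figure D2:**
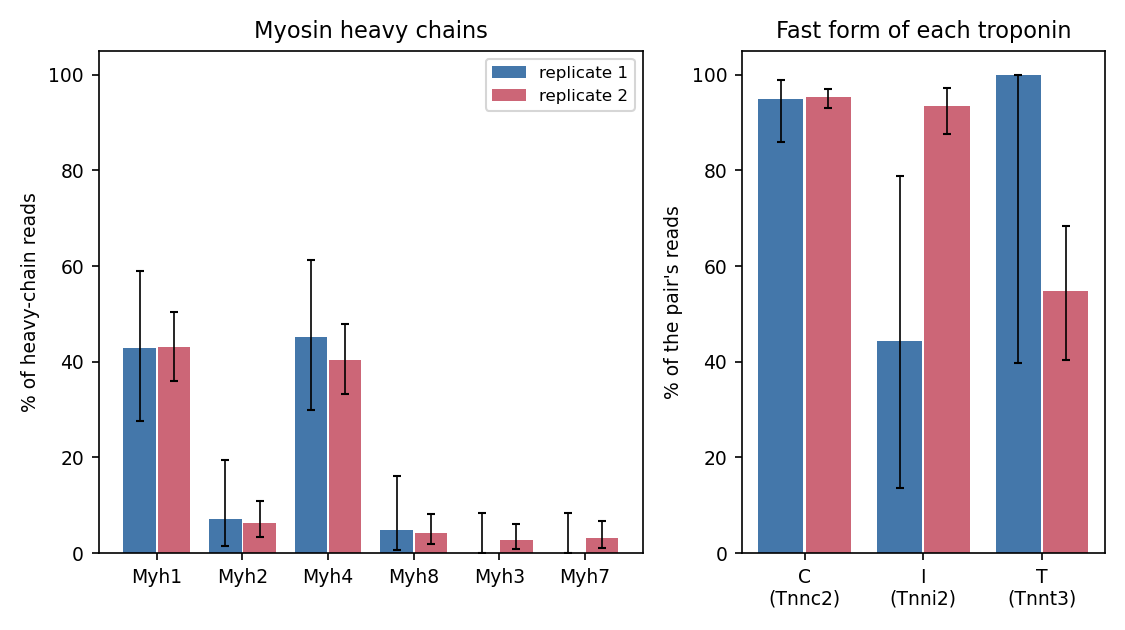
Left, share of heavy-chain reads from each of the 6 myosin heavy chain genes; right, share of the fast-fibre gene in each troponin pair. Bars show both libraries with exact 95% Clopper-Pearson intervals; Myh1 and Myh4 stand near 40% to 45% in both libraries over all models, and the troponin I and T shares of replicate 1 rest on 9 and 4 reads.

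The thin filament carries skeletal actin, the troponin complex and, along its length, nebulin. Acta1, skeletal muscle alpha-actin (chr8:123891769-123894751, minus strand, mm10), had 432 and 1631 reads (466 and 1251 CPM), the highest count of the 35 in both libraries. It was 2.69-fold higher in replicate 2 (Fisher's exact test, adjusted p = 1.89e-85). Its coding sequence is close to that of the cardiac and smooth muscle actins, so a short read may be shared; Actc1, cardiac actin, had 1 and 4 reads.

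Troponin C binds the calcium, troponin I holds the filament off and troponin T ties the complex to tropomyosin. Tnnc2, fast troponin C, had 56 and 460 reads (60.4 and 353 CPM) and was 5.80-fold higher in replicate 2, or 2.79-fold against genes of like length. Tnnc1, the slow and cardiac form, had 3 and 23 reads, with a ratio of 5.46 and an exact 95% interval of 1.65 to 28.4; its call was lost against the ratio expected from length (exact binomial test, adjusted p = 0.283). The fast share of troponin C was 94.9% (85.9% to 98.9%) and 95.2% (92.9% to 97.0%), and these intervals overlap.

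Tnni2, fast troponin I, had 4 reads (4.31 CPM) in replicate 1 and 116 (89.0 CPM) in replicate 2. It was 18.4-fold higher in replicate 2 (Fisher's exact test, adjusted p = 1.15e-20), and 12.3-fold against genes of like length. The length used, 895 nt, is that of an annotated transcript with 0 and 1 reads. Most reads, 3 and 83, lay on a 725-nt chain. The running median log2 ratio of all tested genes was 1.06 at 700 nt and 0.80 at 800 nt, against 0.59 at 895 nt. The 12.3-fold is therefore too high for the length of that chain. With no reads added the ratio of Tnni2 was 20.6, with an exact interval of 7.85 to 77.0. Tnni1, slow troponin I, had 5 and 8 reads, 5.39 and 6.14 CPM, and did not pass. The fast share of troponin I was therefore 44.4% (13.7% to 78.8%) of 9 reads in replicate 1 and 93.5% (87.7% to 97.2%) of 124 in replicate 2, and these intervals do not overlap. At the 1101 nt used for Tnni1 the running median log2 ratio was 0.14, below those at 700 and 800 nt. The part of transcript length in this difference of shares was not tested.

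Tnnt3, fast troponin T, had 4 and 29 reads and was 4.67-fold higher. Tnnt1, slow troponin T, had no read in replicate 1 and 24 in replicate 2, which is at least 5.70-fold higher against a floor of 3 reads in replicate 1, with an exact 95% lower limit of 4.28 for the ratio (Fisher's exact test, adjusted p = 2.45e-05). Of its 24 reads, 19 were on suffix models, which lack the 5′ exons. The fast share of troponin T was 4 of 4 reads in replicate 1 and 54.7% (40.4% to 68.4%) of 53 in replicate 2. Slow and fast forms of troponin T thus had similar read numbers in replicate 2, unlike the C and I pairs. Neb, nebulin, had 0 and 8 reads.

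At the Z-disc, where thin filaments are anchored, 5 of 6 tested genes were higher in replicate 2. Tcap, which caps titin, had 6 and 73 reads (6.47 and 56.0 CPM) and was 8.05-fold higher. Actn2 and Actn3, the alpha-actinins that cross-link actin, had 12 and 59, and 28 and 80 reads, and were 3.39-fold and 2.01-fold higher. On annotated models alone the log2 ratio of Actn2 was 1.12 in place of 1.76 and did not pass (Fisher's exact test, adjusted p = 0.0516). Myoz1, a fast-fibre calcineurin-binding protein, had 8 and 32 reads and was 2.72-fold higher. Des, the intermediate filament desmin, which smooth and heart muscle also make, had 44 and 140 reads (47.4 and 107 CPM) and was 2.25-fold higher. Myot, myotilin, went the other way with 12 and 11 reads (12.9 and 8.44 CPM), a ratio of 0.653 whose exact interval of 0.261 to 1.62 includes 1. Titin (Ttn) had 0 and 3 reads and Ldb3, a PDZ-LIM protein of the Z-disc, 0 and 6.

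Of the calcium genes, Atp2a1, the fast-fibre calcium pump SERCA1 (chr7:126445858-126463108, minus strand, mm10), had 228 reads (246 CPM) and 804 (617 CPM) and was 2.51-fold higher in replicate 2 (Fisher's exact test, adjusted p = 6.05e-38). Casq1, the calcium store protein calsequestrin, had 40 and 117 reads and was 2.07-fold higher. Pvalb, parvalbumin, a calcium buffer of the fastest fibres and also of some neurons, had 2 and 52 reads (2.16 and 39.9 CPM), a ratio with no reads added of 18.5 and an exact interval of 4.87 to 157. The release channel Ryr1 had 2 and 3 reads and its voltage sensor Cacna1s 1 and 5. All 3 tested calcium genes were higher in replicate 2.

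Among energy genes, Ckm, muscle creatine kinase (chr7:19411025-19422841, plus strand, mm10), had 259 reads (279 CPM) and 1023 (785 CPM) and was 2.81-fold higher. Eno3, muscle enolase, had 77 and 181 reads and was 1.67-fold higher, the smallest ratio among the 22 calls. Pygm, muscle glycogen phosphorylase, had 38 and 62 reads (41.0 and 47.6 CPM), a ratio of 1.16 with an interval of 0.763 to 1.79. Mb, myoglobin, had 6 and 21 reads and did not pass (Fisher's exact test, adjusted p = 0.117).

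The ratios of the members were not alike, and the shortest transcripts had the highest. The 9 tested members of 683 to 1043 nt had a median ratio of 8.05-fold (5.80-fold with Tnnt1 at its bound) and all 9 were higher in replicate 2. The 12 of 1101 to 3028 nt had a median of 2.15-fold, and the 7 of 3485 to 6149 nt one of 2.68-fold. Across all tested genes in the same length ranges the median log2 ratios were 0.64, -0.28 and -0.47, so short transcripts in general took more of replicate 2. Over the 28 members, Spearman's rho between length and log2 ratio was -0.53 (-0.52 with Tnnt1 at its bound), a description over genes that share both libraries. Against the median ratio of genes of like length, 21 members were higher and the member median was 3.15-fold. The median log2 ratio against like length was 2.32 for the short members in place of 3.01, with 8 of the 9 still called, 1.38 for the middle group and 1.81 for the long one. Reads also lay on shorter models in replicate 2 over the whole library, with a mean of 2308 nt in replicate 1 and 1852 nt in replicate 2, and the part of read length in the ratios was not tested beyond this.

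**Figure D3:**
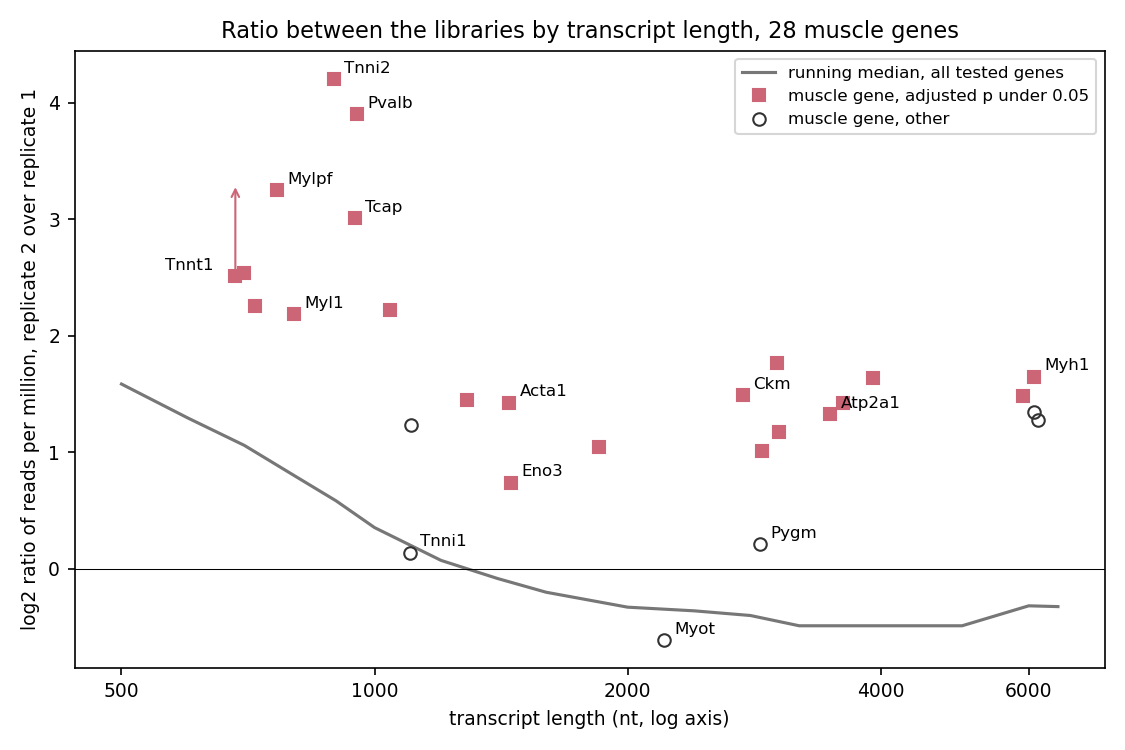
Log2 ratio of CPM (replicate 2 over replicate 1) against the length of the gene's most-read annotated transcript, or most-read model where none was read, for the 28 tested muscle genes. Filled squares passed the test and open circles did not, the line is the running median of all tested genes, and the arrow marks Tnnt1, drawn at its lower bound; 27 of 28 members lie above 0, the exception being Myot.

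Companion genes of the same structures were tested in the same way. The shares to set beside the counts of these lists and the marker lists are those over all tested genes, 13.0% higher and 22.2% lower. Of 32 other sarcomere and Z-disc genes 12 were tested, 4 were higher in replicate 2 and 2 lower. Tpm1 (161 and 574 reads) and Tpm2 (94 and 249 reads), the muscle tropomyosins, which smooth muscle also makes, were 2.53-fold and 1.88-fold higher. Tpm3, a slow-fibre and non-muscle tropomyosin, had 379 and 182 CPM and was lower, at 0.480-fold. Cryab, a small heat-shock protein, was higher and Fhl1, a LIM-domain protein, lower, and Myl3, the slow and ventricular light chain, had 1 and 16 reads and was named after its values were seen. None of these 3 calls held against genes of like length. With TMM scaling the counts were 6 higher and 1 lower.

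Of 21 excitation and calcium genes 9 were tested and 1 was higher, near the 13.0% of all tested genes. This was Hrc, a calcium-binding protein of the reticulum, with 1 and 18 reads (named after its values were seen). Atp2a2, the slow-fibre, cardiac and non-muscle pump, had 143 and 123 CPM and did not pass. Chrnd, Chrne and Chrng, acetylcholine receptor subunits, and the fibre channels Clcn1 and Scn4a were at 0 in both libraries. Of 13 energy genes 10 were tested, 5 were higher and 1 lower. Cox8b (372 and 2017 CPM), Cox7a1 (239 and 929 CPM) and Fabp3 (74.4 and 171 CPM), 2 respiratory chain subunits and a fatty acid carrier, are shared with brown fat. Of the 8 brown fat genes 4 were higher in replicate 2, these 3 and Cidea (1.76-fold). The 3 lower ones included Ucp1 (0.658-fold) and Elovl3 (0.389-fold). Against genes of like length the log2 ratio of Cox8b was 0.76 in place of 2.44 and that of Cox7a1 0.29 in place of 1.95, and Fabp3 did not pass (exact binomial test, adjusted p = 0.103). Pgam2 (8 and 57 reads), muscle phosphoglycerate mutase, and Cox6a2 (1 and 44 reads), a heart and skeletal muscle cytochrome oxidase subunit, were also higher and were named after their values were seen. Aldoa, an aldolase found in most tissues, was lower, at 0.713-fold.

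Of 12 myogenic regulators 4 were tested and none passed by Fisher's exact test, and 1 had an unadjusted p under 0.05; none passed with TMM scaling or against length either. Mef2d, Mef2c and Mef2a had 45.3, 29.1 and 31.3 CPM in replicate 1 and 29.2, 21.5 and 16.9 CPM in replicate 2. Myog, a factor of differentiating muscle cells, had 3 and 4 reads and Myf6 0 and 3. Myf5, Mymk, Pax3 and Pax7, genes of muscle stem and fusing cells, were at 0 in both libraries.

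Markers of other muscle types were measured beside these. Of 11 cardiac genes 7 were at 0 in both libraries (Mybpc3, Myh6, Myl7, Nppa, Tbx5, Tnni3 and Tnnt2), and the 11 summed to 8.62 and 13.0 CPM. Of 9 smooth muscle genes 5 were tested and 2 were higher in replicate 2, Acta2, smooth muscle actin (32.3 and 128 CPM, 3.91-fold), and Cnn1, calponin (6.47 and 21.5 CPM), and the 9 summed to 127 and 244 CPM. Their part in the level of Des was not tested.

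Each read was also placed on a transcript model, either an annotated one (Known), a piece of one (incomplete splice match, ISM), a new combination of known splice sites (NIC), a chain with an unknown splice site (NNC), or Genomic. Known models held 73.6% (71.3% to 75.9%) of member reads in replicate 1 and 68.9% (67.7% to 70.1%) in replicate 2, against 79.8% and 73.9% over all genes. ISM models held 8.20% and 13.0% of pooled reads, close to 8.86% and 13.1% over all genes. This match was of pooled reads, in which genes with many reads weigh more. With each read gene counted once, the median ISM share, as a mean of the libraries, was 15.1% for members and 3.75% for all genes. The same median for Known models was 72.9% for members and 65.7% for all genes. NNC models held 12.9% in both libraries, against 3.68% and 2.81% over all genes. Without Atp2a1 the NNC share of the other 34 members was 2.53% and 2.15%, and their Known share 87.8% and 79.5%. Atp2a1 held most NNC reads of the members, 152 of 182 and 662 of 774, and no gene was left out of the shares over all genes. The shares without Atp2a1 are therefore not like for like with those of all genes.

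Atp2a1 had no read on an annotated transcript, 0 of 228 in replicate 1 and 0 of 804 in replicate 2, which allows up to 1.60% and 0.46%. The longest annotated transcript has 23 exons in 3477 nt. Its second exon has only 18 nt (chr7:126462500-126462517). Of the reads that span this exon, 0 of 215 and 0 of 774 contained it. Instead 214 and 765 of them, 99.5% and 98.8%, used a junction not in the annotation, which carries exon 1 a further 26 nt into the intron and then joins exon 3 (intron chr7:126462188-126462778). The 26 nt added and the 18 nt lost leave the model 8 nt longer, which is not a multiple of 3, so the model as listed does not keep the annotated reading frame into exon 3. The junction was the same to the base in both libraries.

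The annotated exon 2 is shown in capitals between the coding ends of exons 1 and 3 (GENCODE M21, mm10), because no read of either library held it.
Atp2a1 exon 2: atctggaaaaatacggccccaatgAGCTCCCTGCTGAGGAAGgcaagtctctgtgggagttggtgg

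Beyond this junction the reads followed the annotated exons and formed 2 whole chains, alike in both libraries. The chain with exon 22 has 22 exons and 3485 nt and held 147 reads (64.5%, 57.9% to 70.7%) in replicate 1 and 646 (80.3%, 77.4% to 83.0%) in replicate 2. The chain that skips the 42-nt exon 22 (chr7:126446545-126446586) has 21 exons and 3443 nt and held 49 reads (21.5%, 16.3% to 27.4%) and 100 (12.4%, 10.2% to 14.9%). Together they held 86.0% and 92.8% of the gene's reads.

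Exon 22 decides the C-terminus of the pump. With it, the protein ends in the adult form SERCA1a, and without it translation runs on into exon 23 to give the neonatal form SERCA1b, as known from mammalian muscle. The coding ends of the annotated transcripts with and without exon 22 are shown from the last bases of exon 21, with the part after the exon junction in capitals up to the stop codon.
Atp2a1 with exon 22: tcattgctcggaactatctggaggGATAA
Atp2a1 without exon 22: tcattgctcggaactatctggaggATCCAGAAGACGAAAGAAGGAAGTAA
Over all models with either junction, exon 22 was joined in 172 of 225 reads (76.4%, 70.3% to 81.8%) in replicate 1 and in 688 of 796 (86.4%, 83.9% to 88.7%) in replicate 2. The neonatal junction accordingly took 23.6% and 13.6%. The intervals of the libraries do not overlap, and in both the adult junction was the more frequent. The intron after exon 22 was kept in 13 of 172 and 8 of 688 of the reads that had joined the exon.

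**Figure D4:**
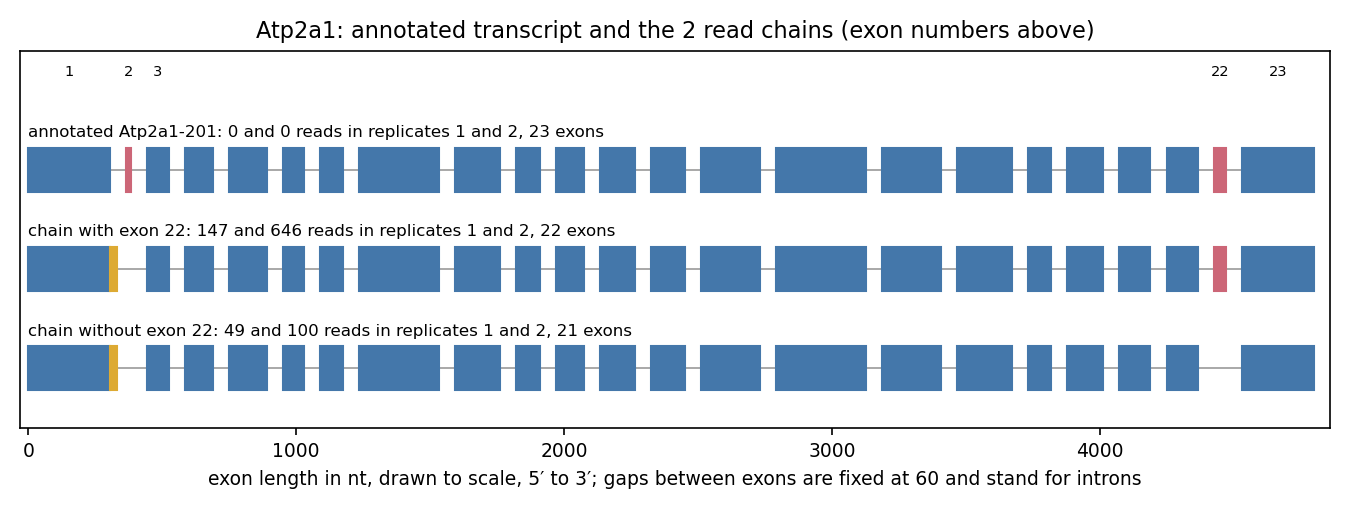
Exons of Atp2a1 drawn to scale in nt from 5′ to 3′ with introns as fixed gaps, for the annotated transcript and the 2 chains that were read, with reads in each library. Red marks exons 2 and 22 and yellow the 26 nt added to exon 1; the annotated form has 0 reads in both libraries.

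Very small exons were missing from most or all spanning reads of other members as well. Tnni2 has a 7-nt exon 3 (chr7:142442691-142442697), and 0 of 4 and 0 of 96 spanning reads held it. The chain that joins its neighbours directly (7 exons, 725 nt) took 3 of the gene's 4 reads in replicate 1 and 83 of 116 in replicate 2. Tnni1 has a 4-nt exon (chr1:135803282-135803285) that was in 0 of 5 and 0 of 8 spanning reads, with 4 reads in each library on the chain without it. Both are coding exons whose lengths are not multiples of 3. A 14-nt exon of Tnnt3, present in every coding transcript of the gene that spans it, was in 0 of 3 and 0 of 19 reads. Of its small exons that only some transcripts hold, a 19-nt exon was in 2 of 20 spanning reads of replicate 2, an 18-nt exon in 1 of 19 and a 15-nt exon in 1 of 20. For Tnnt1 a 14-nt exon was in 0 of 4 reads of replicate 2.

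The small exons are shown within the coding sequence of Tnni2 and Tnni1 (GENCODE M21, mm10), since they are the parts that the reads lacked. Capitals mark the small exon.
Tnni2 exon 3: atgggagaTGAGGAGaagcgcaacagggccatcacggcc
Tnni1 exon 4: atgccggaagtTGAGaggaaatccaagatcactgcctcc

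The 6 members with an exon under 20 nt in every coding transcript that spans it, Atp2a1, Tnni1, Tnni2, Tnnt1, Tnnt3 and Ryr1 (whose small exon no read spanned), had 0 of 243 reads on annotated transcripts in replicate 1 and 1 of 984 in replicate 2. The 3 members with such an exon in some transcripts, Mylpf, Cacna1s and Ldb3, had 34 of 34 and 390 of 457. The 26 members with no exon under 20 nt had 88.6% (86.6% to 90.4%) and 82.0% (80.9% to 83.1%). The shares over the whole series, members included, were taken for internal exons present in every coding transcript that spans them. Exons of 1 to 9 nt were in 0 of 1111 spanning reads over 21 exons in replicate 1 and 0 of 1102 over 19 exons in replicate 2. Those of 10 to 19 nt were in 19.9% and 15.3%, those of 20 to 29 nt in 90.7% and 91.6%, and those of 100 nt or more in 98.5% and 98.2%. Genes with many reads weigh more in these shares, and whether the exons were lost in alignment or absent from the RNA was not tested.

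**Figure D5:**
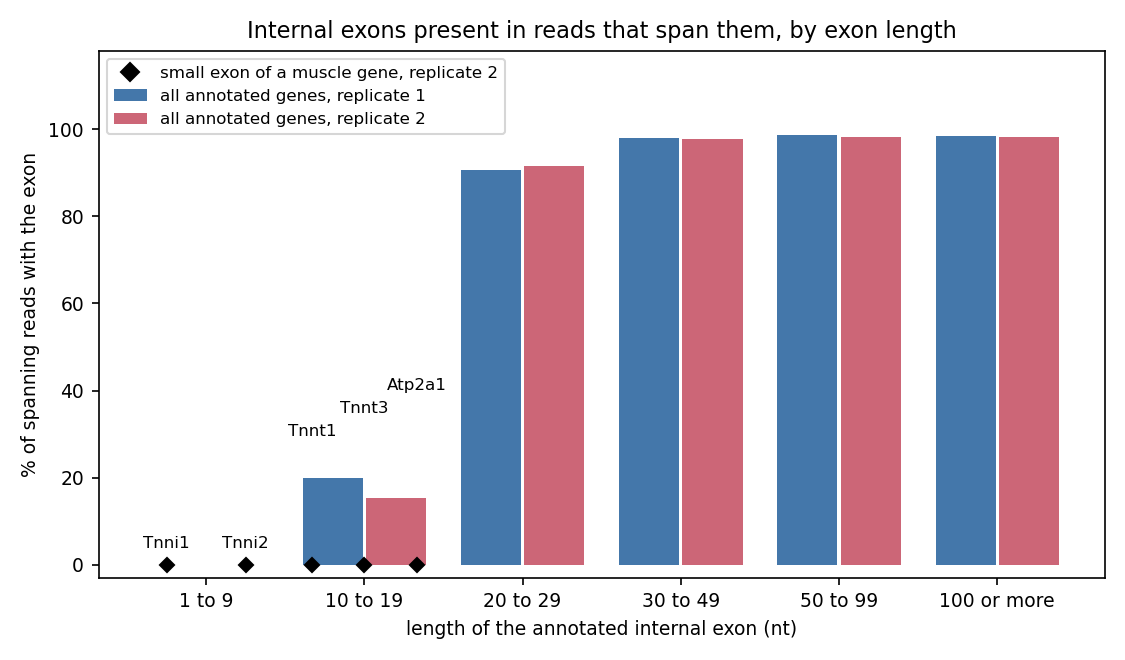
Share of spanning reads that hold an annotated internal exon, by exon length, over all annotated genes in each library (bars), with the small exons of 5 muscle genes in replicate 2 as diamonds. Bars stay at 0 for 1 to 9 nt and exceed 90% from 20 nt, and all 5 diamonds lie at 0.

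Myl1 makes 2 light chains from separate starts. The upstream start gives the longer form, with an N-terminal extension rich in alanine and proline, and the downstream start the shorter form; the rest of the protein is shared. Their coding starts are shown with the unshared part in capitals (GENCODE M21, mm10, chromosome 1, minus strand).
Myl1 long form: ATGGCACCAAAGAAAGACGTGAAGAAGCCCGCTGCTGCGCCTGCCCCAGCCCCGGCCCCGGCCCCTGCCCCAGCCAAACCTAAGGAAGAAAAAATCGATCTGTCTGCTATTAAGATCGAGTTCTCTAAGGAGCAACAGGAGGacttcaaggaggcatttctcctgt
Myl1 short form: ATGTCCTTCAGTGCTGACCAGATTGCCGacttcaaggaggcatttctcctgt
The short form had 22 of 39 annotated reads (56.4%) in replicate 1 and 158 of 252 (62.7%) in replicate 2. Over all models with a junction of just 1 of the starts, the downstream start took 22 of 44 reads (interval 34.6% to 65.4%) and 177 of 283 (62.5%, 56.6% to 68.2%). The short form was thus at or above the long form in both, and its share of annotated reads did not pass the test between libraries (Fisher's exact test, adjusted p = 1.00).

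Isoform use was compared between libraries for genes with 20 or more annotated reads in each and at least 2 annotated transcripts read. Of the 3040 such genes 2.04% differed, and of the 3 members among them, Myl1, Mylpf and Eno3, none passed, nor had any an unadjusted p under 0.05. The Eno3 transcript of 1454 nt took 46.3% and 56.7% of the annotated reads of muscle enolase, that of 1564 nt 31.3% and 29.1%, and that of 1461 nt 22.4% and 14.2%. The leading transcript of Mylpf took 33 of 33 and 384 of 388. A single annotated transcript took every annotated read of Acta1, Actn3, Casq1, Ckm, Des, Pygm and Tnnc2 in both libraries.

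Of 155 unannotated chains (NIC or NNC) of members, 24 from 11 genes were read in both libraries with all introns the same, and these held 230 of 255 such reads in replicate 1 and 901 of 1053 in replicate 2. Of the 24, 6 pass over an annotated exon under 20 nt. Apart from these, Myh4 had a chain of 40 exons and 6275 nt, 1 exon more than the annotated 39 and with 1 unannotated junction, in 2 and 9 reads. Acta1 had an 8-exon chain in 4 and 12 reads and Myl1 a 6-exon chain in 1 and 8. The rest had 4 reads or fewer in each library.

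The giant genes were read in pieces. Titin's longest coding transcript has 106824 nt and its longest model 3680 nt, and nebulin's have 22489 and 3651 nt. The longest model of Ryr1 had 2586 nt of 15358, and all of its reads, 2 and 3, were suffix models that end at the 3′ side. Among the heavy chains, 11 of 18 and 32 of 81 Myh1 reads lay on models that begin within 100 bases of an annotated coding transcript's start, against 3 of 19 and 12 of 76 for Myh4. Another 2 and 9 Myh4 reads lay on the 40-exon chain, which starts upstream of the annotated gene (position 67237573 against 67238029) and so falls outside that window. Of the Ckm reads, 253 of 259 and 967 of 1023 began within it. Of the 6 reads of Ldb3, 3 lay on models listed with a length of 1 base. For titin, nebulin and Ryr1 no model came near the length of the longest coding transcript, while whole heavy-chain transcripts were read, as for Myh8 with 2 of 2 reads of replicate 1 on a 6149-nt model. In replicate 2 all 8 Myh8 reads were pieces, on models of at most 4378 nt.

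The promoter windows of the members, 250 bases before to 50 after the RefSeq start (GRCm38.p6), were searched on both strands for CAGCTG, an E-box read by myogenic factors in muscle, and for the TATA box motif. RefSeq windows were matched for 28 of the 35 members, in 34 windows, and not for Actn3, Tnni2, Tnnt3, Neb, Tcap, Myoz1 and Myot. CAGCTG was in 16 of the 34 windows (47.1%), against 16.3% of all 32851 windows, and the TATA box, spelled TATAAA, in 8 (23.5%), against 13.6%. The windows of the 2 members with the most reads are shown because they lead the list. Capitals mark the E-box, 221 bases before the RefSeq start in Acta1 and 249 in Ckm. These RefSeq starts lie 24 bases from a GENCODE start in Acta1 and 31 in Ckm. Capitals also mark the spelling TATAAA, 7 bases before the RefSeq start in Acta1. That exact spelling was found in Acta1 alone of the 2 windows, and other spellings of a TATA box were not searched.
Acta1 (chr8:123894726-123895025, minus strand): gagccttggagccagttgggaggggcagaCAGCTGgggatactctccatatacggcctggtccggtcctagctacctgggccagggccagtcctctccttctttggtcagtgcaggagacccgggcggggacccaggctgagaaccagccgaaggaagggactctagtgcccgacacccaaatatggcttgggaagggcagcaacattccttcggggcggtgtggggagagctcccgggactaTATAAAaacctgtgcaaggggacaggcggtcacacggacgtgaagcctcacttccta
Ckm (chr7:19410844-19411143, plus strand): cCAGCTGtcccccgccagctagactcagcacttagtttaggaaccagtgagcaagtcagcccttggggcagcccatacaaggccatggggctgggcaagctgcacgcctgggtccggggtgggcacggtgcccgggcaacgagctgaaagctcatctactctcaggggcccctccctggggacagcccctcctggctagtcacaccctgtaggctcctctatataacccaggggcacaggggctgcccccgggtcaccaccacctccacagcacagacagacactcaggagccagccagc
A match is a run of letters and shows no binding.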

How the data were processed

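Long-read RNA sequencing was measured in 2 libraries of 1 group. Per the file headers, the authors deposited raw counts of reads per TALON transcript model (models built on GENCODE M21, mm10), with the other values (exons, lengths and positions of each model) in the same tables and in GTF files. The sources used here do not name an aligner or versions. Reads were summed over all models of each annotated gene; spike-ins (1.57% and 2.50% of 971827 and 1407511 reads) and unannotated genes were left out. Tests used Python 3.11.15, scipy 1.17.1 and Benjamini-Hochberg adjustment, with 0.5 reads added for fitted ratios; edgeR 4.0.16 and DESeq2 1.42.0 gave scaling factors only. Alternatives with scaling or a length expectation used an exact binomial test. Shares have exact 95% Clopper-Pearson intervals, which cover counting error only. Chains were matched by chromosome, strand and all introns. Transcript sequences are from GENCODE M21 and promoters from RefSeq. The test was run on simulated libraries with counting error only. It found 45.8% of 2-fold and 86.2% of 4-fold changes and called 0.0787% of unchanged genes. Differences between libraries beyond counting error, such as that with transcript length, were not simulated.

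The members and the companion and marker lists were chosen with earlier results of these data known. All members are named, with up to 6 companion or marker genes per list by mean CPM, except where stated, isoforms of members with 20 or more annotated reads in each library, and unannotated chains read in both. Deeper counts in replicate 2 give it narrower intervals.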

Additional observations from a re-analysis of the deposited data

How the results depend on the processing

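No member was called lower in replicate 2 in any setting run, though Myot had a negative log2 ratio in each. In each setting 21 or 22 were called higher, except that annotated models alone gave 14 of 21 tested. Atp2a1, Tnni2, Tnnt1 and Tnnt3, which have no or 1 annotated read, could not be tested there, and Mybpc1, Actn2, Myh1 and Myh4 no longer passed. The ratio expected from length lost Tnnc1 and the 2-fold minimum Eno3. The summed level of 3073 CPM ranged from 1525 to 4620 CPM on leaving out a replicate. Annotated models moved the mean heavy-chain shares of Myh1 to 64.4%, Myh2 to 1.11%, Myh4 to 21.6%, Myh7 to 4.44% and Myh8 to 6.25%; they left no troponin I or T value in replicate 1. With all reads of the gene as the denominator, the most-read transcript took 87.9% for Acta1, 74.8% for Actn3, 95.3% for Casq1, 95.3% for Ckm, 73.2% for Des, 42.2% for Eno3, 46.5% for Myl1, 93.0% for Mylpf, 65.4% for Pygm and 97.8% for Tnnc2. Models with the unannotated Atp2a1 junction, whole or partial, held 94.5% against 72.4% for the exact chain. As medians over members, class shares moved to 15.1% for ISM, 0% for NIC, 0.714% for NNC and 0% for Genomic. The medians over all genes were 3.75% for ISM, 0% for NIC, 0.601% for NNC and 1.04% for Genomic. The causes were not tested. No paired analysis was possible because the series has 1 group. Replicate 1, with 1415 member reads, sets the depth limit.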
